A study of Mus musculus with 2 samples.

Results

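Expression of 10 genes that take part in the response of endothelium to blood flow and in valve formation was examined in single cells of the mitral valve. The genes were Prox1, Foxc2, Klf2, Klf4, Nfatc1, Gata2, Gja1, Gja4, Nos3 and Thbd, taken by symbol from the 32285 features of the count matrices, and all 10 were measured. There was 1 library from WT mice (Fbn1+/+) and 1 library from mgR mice, in which both Fbn1 alleles are the hypomorphic mgR allele (mgR/mgR), so that less fibrillin-1 is made. The mice were 12 weeks of age, and no treatment is labelled for either library. According to the methods of the study, all mice had a C57BL/6J background, controls were littermates, leaflets were dissociated with elastase and collagenase, and only viable cells were taken on by sorting. The mgR allele is present in every cell of the animal, so a difference in endothelium is not a difference made by endothelial Fbn1 alone. A legend in the supplement of the study gives an n for the single-cell data, but the labels do not say how many mice went into each library or whether they were pooled. With 1 library per genotype no difference has a replicate check, and no test was made. All intervals are 95% intervals and cover counting error only.

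Endothelial cells sense the drag of moving blood at their surface, and steady laminar flow raises the transcription factors KLF2 and KLF4 through the MEK5-ERK5 kinases and MEF2 factors. KLF2 and KLF4 in turn raise endothelial nitric oxide synthase (Nos3), which makes the vasodilator nitric oxide, and thrombomodulin (Thbd), which turns thrombin towards an anticoagulant role. In the developing heart NFATC1 marks endocardium that forms cushions and valves, and in valves of lymphatic vessels and veins PROX1, FOXC2 and GATA2 act together with the gap junction proteins connexin 37 (Gja4) and connexin 43 (Gja1).

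Endothelium was defined as cells with at least 3 UMIs (unique molecular identifiers, 1 per captured RNA molecule) of Pecam1, Cdh5 and Egfl7 together and no UMI of the leukocyte gene Ptprc. None of the 10 genes was used for this. There were 51 such cells among 875 WT cells, a share of 5.83% (4.37 to 7.59%), and 443 among 3438 mgR cells, a share of 12.9% (11.8 to 14.1%). Median depth was 4532 UMIs per endothelial cell in WT and 5506 in mgR. Endothelial genes outside the gate were found where they should be: Tie1 was at 217 UMIs per 1e+06 UMIs of the same cells (CPM) in WT endothelium and 153 CPM in mgR endothelium, and at most 0.744 CPM in fibroblasts and macrophages, and Kdr, Emcn, Ecscr and Vwf were also highest in endothelium. The libraries differed in more than genotype. Among endothelial cells, 18 WT and 261 mgR cells held UMIs of Xist and none of 4 Y-linked genes, whereas 14 WT and 78 mgR cells held Y-linked UMIs and no Xist (below, Xist cells and Y cells), so that both sexes were present in both libraries in different proportions, although the methods of the study describe comparisons of males. The gate also took in 1 WT and 9 mgR cells with lymphatic genes (Ccl21a, Mmrn1, Reln, Pdpn), 6 WT and 64 mgR cells with blood capillary genes, and 25 WT and 301 mgR cells with at least 10 UMIs of the fibroblast matrix genes, mostly decorin (Dcn). Without Dcn, 3 WT and 34 mgR cells reached 10 UMIs of these genes. No barcode was shared between the kept cells of the libraries. Fbn1 itself, the targeted gene, was at 86.1 CPM in WT and 53.7 CPM in mgR endothelium, a ratio of 0.623 (0.393 to 1.04), and at 170 and 138 CPM in fibroblasts, a ratio of 0.813 (0.711 to 0.932).

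All 10 genes are protein coding and were placed by their identifier in GENCODE M21 on GRCm38. Klf2 (ENSMUSG00000055148) is at chr8:72319033-72321656 and Foxc2 (ENSMUSG00000046714) at chr8:121116171-121118895, both on the plus strand. Klf4 (ENSMUSG00000003032) is at chr4:55527143-55532466 and Gja4 (ENSMUSG00000050234) at chr4:127311421-127314039, both on the minus strand. Gja1 (ENSMUSG00000050953) is at chr10:56377330-56402513 and Gata2 (ENSMUSG00000015053) at chr6:88193891-88207032 on the plus strand. Nos3 (ENSMUSG00000028978) is at chr5:24364810-24384474 on the plus strand, Thbd (ENSMUSG00000074743) at chr2:148404466-148408188 on the minus strand and Prox1 (ENSMUSG00000010175) at chr1:190118035-190170714 on the minus strand. Foxc2 overlaps Gm20388 on its own strand, and Nos3, Prox1 and Nfatc1 overlap genes on the other strand (Atg9b and Gm15587, Prox1os and Gm28172, and AC123818.1), so UMIs in the shared stretches are uncertain in origin.

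Promoter windows of RefSeq on GRCm38.p6, from 250 bases before to 50 bases after the start, were found for 6 of the 10 genes (Prox1, Klf2, Klf4, Gata2, Gja1 and Gja4), and Foxc2, Nfatc1, Nos3 and Thbd had no entry. The 4 windows below belong to the pair of genes that were seen together in most endothelial cells, Klf2 and Klf4, and to the pair that were seen together less often than their shares would give, Gja1 and Gja4. Each is written from 5′ to 3′ on the strand of its gene, with capitals at matches, on either strand, to 5 motifs. These were CACCC, which KLF factors bind, the motif of MEF2 by name, TAAACA of forkhead factors such as FOXC2, AGATAA, which the GATA family binds, and GGAAA, the core bound by NFAT proteins. The windows are chr8:72318812-72319111 (plus) for Klf2, chr4:55532426-55532725 (minus) for Klf4, chr10:56377050-56377349 (plus) for Gja1 and chr4:127313990-127314289 (minus) for Gja4.
Klf2: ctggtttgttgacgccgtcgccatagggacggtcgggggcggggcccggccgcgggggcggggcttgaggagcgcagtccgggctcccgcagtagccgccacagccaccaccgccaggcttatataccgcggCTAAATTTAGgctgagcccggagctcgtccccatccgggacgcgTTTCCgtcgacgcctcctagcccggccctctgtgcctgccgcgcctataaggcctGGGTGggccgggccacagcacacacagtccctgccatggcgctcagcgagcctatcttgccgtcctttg
Klf4: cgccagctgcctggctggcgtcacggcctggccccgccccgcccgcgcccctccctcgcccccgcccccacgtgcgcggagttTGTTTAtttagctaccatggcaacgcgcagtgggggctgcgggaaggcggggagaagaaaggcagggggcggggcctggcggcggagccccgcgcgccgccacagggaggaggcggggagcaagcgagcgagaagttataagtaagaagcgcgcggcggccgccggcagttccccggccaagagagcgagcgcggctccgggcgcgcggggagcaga
Gja1: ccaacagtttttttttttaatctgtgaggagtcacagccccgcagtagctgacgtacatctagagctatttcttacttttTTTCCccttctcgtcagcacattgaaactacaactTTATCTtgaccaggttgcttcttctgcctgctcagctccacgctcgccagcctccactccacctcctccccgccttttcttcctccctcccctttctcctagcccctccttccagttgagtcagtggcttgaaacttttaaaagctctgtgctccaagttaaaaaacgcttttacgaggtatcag
Gja4: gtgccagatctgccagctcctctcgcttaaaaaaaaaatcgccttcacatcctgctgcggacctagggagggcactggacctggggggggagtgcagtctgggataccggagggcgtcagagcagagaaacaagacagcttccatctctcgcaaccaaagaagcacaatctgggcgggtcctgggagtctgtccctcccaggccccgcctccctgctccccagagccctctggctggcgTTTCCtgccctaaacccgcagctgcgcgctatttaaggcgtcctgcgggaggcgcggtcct
The Klf2 window held 1 MEF2 match that began 118 bases before the start, 1 CACCC match and 1 GGAAA match. Of 32851 windows of the same length, 3.19% held a MEF2 match, 57.5% the KLF motif, 61.3% the NFAT motif, 13.4% the forkhead motif and 11.2% the GATA motif. The Klf4 window held 1 TAAACA match and none of the others. The Gja1 window held 1 AGATAA match and 1 GGAAA match, and the Gja4 window held 1 GGAAA match. Both connexin windows thus held GGAAA, as did most windows, and the MEF2 match of Klf2 was the least common of the 5 motifs. A match describes these letters and is not a binding site.

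Every gene was at its highest level in endothelium, in both libraries, when cells were sorted into endothelium, fibroblasts, macrophages, T or NK cells and other leukocytes. By a rule of at least 2-fold over all other cells with an interval above 1, 9 of the 10 genes were called in WT, where 12.7% of 10740 measured genes were called, and all 10 in mgR, where 15.7% of 13739 were called. Klf4 was the exception in WT, at 1.88-fold (1.67 to 2.11).

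Nos3 was the gene most restricted to endothelium. Its level was 422 CPM in WT endothelium and 338 CPM in mgR endothelium, against 1.17 and 1.79 CPM in fibroblasts and 0.744 and 1.33 CPM in macrophages. Endothelium held 92.0% (85.3 to 96.3%) of all Nos3 UMIs of the WT library and 90.3% (88.4 to 92.1%) of those of the mgR library. A Nos3 UMI was seen in 66.7% of WT and 67.5% of mgR endothelial cells, and in 0.510% of WT and 1.22% of mgR macrophages, which should lack the gene and whose median depth was 6269 and 8684 UMIs. Prox1 was at 189 and 187 CPM in endothelium, at 4.70 and 5.38 CPM in fibroblasts and at 2.23 and 1.49 CPM in macrophages. Gata2 was at 217 CPM in WT and 150 CPM in mgR endothelium, and a UMI was held by 2 of 1398 mgR macrophages and by 0 of 196 WT macrophages. That count of 0 has a Clopper-Pearson interval up to 1.86%, and 3 counts in 196 cells would be 1.53%. Thbd was at 406 and 326 CPM in endothelium and between 10.6 and 18.4 CPM in fibroblasts and macrophages. The smallest ratio of endothelium to fibroblasts among these 4 genes was 17.7 (14.5 to 21.7), that of Thbd in mgR.

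The other 6 genes were shared with fibroblasts, in which they were lower than in endothelium or could not be told apart from it. Klf2 was at 1439 CPM in WT and 2372 CPM in mgR endothelium, at 391 and 538 CPM in fibroblasts, and at 139 and 150 CPM in macrophages, so that endothelium was 3.68-fold (3.23 to 4.20) and 4.41-fold (4.23 to 4.60) above fibroblasts. Klf4 was at 1271 and 1903 CPM in endothelium and 1202 and 1476 CPM in fibroblasts, a ratio of 1.06 (0.935 to 1.19) in WT and 1.29 (1.24 to 1.33) in mgR. Endothelium held only 9.58% of the Klf4 UMIs of the WT library and 22.3% of those of the mgR library. Klf2 and Klf4 UMIs were found in every leukocyte class too, and no cell type here lacks them, so their shares have no background value.

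Foxc2 was at 41.0 and 41.3 CPM in endothelium and 12.9 and 15.2 CPM in fibroblasts, and was seen in 2 of 1398 mgR macrophages and in 0 of 196 from WT (interval up to 1.86%). Nfatc1 (ENSMUSG00000033016, minus strand of chr18:80606205-80713071), which T cells also use, was at 148 and 206 CPM in endothelium, 78.7 and 74.2 CPM in fibroblasts, and 67.4 and 52.7 CPM in T or NK cells. Gja1 was at 90.2 and 94.2 CPM in endothelium against 74.0 and 61.2 CPM in fibroblasts, a ratio of 1.22 (0.737 to 1.93) in WT and 1.54 (1.31 to 1.81) in mgR. Gja4 was at 73.8 and 118 CPM in endothelium against 52.3 and 48.8 CPM in fibroblasts, a ratio of 1.41 (0.80 to 2.36) in WT and 2.41 (2.05 to 2.83) in mgR. In WT neither connexin could be told apart between endothelium and fibroblasts at this depth. Macrophages held at most 2 CPM of either connexin.

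**Figure D1:**
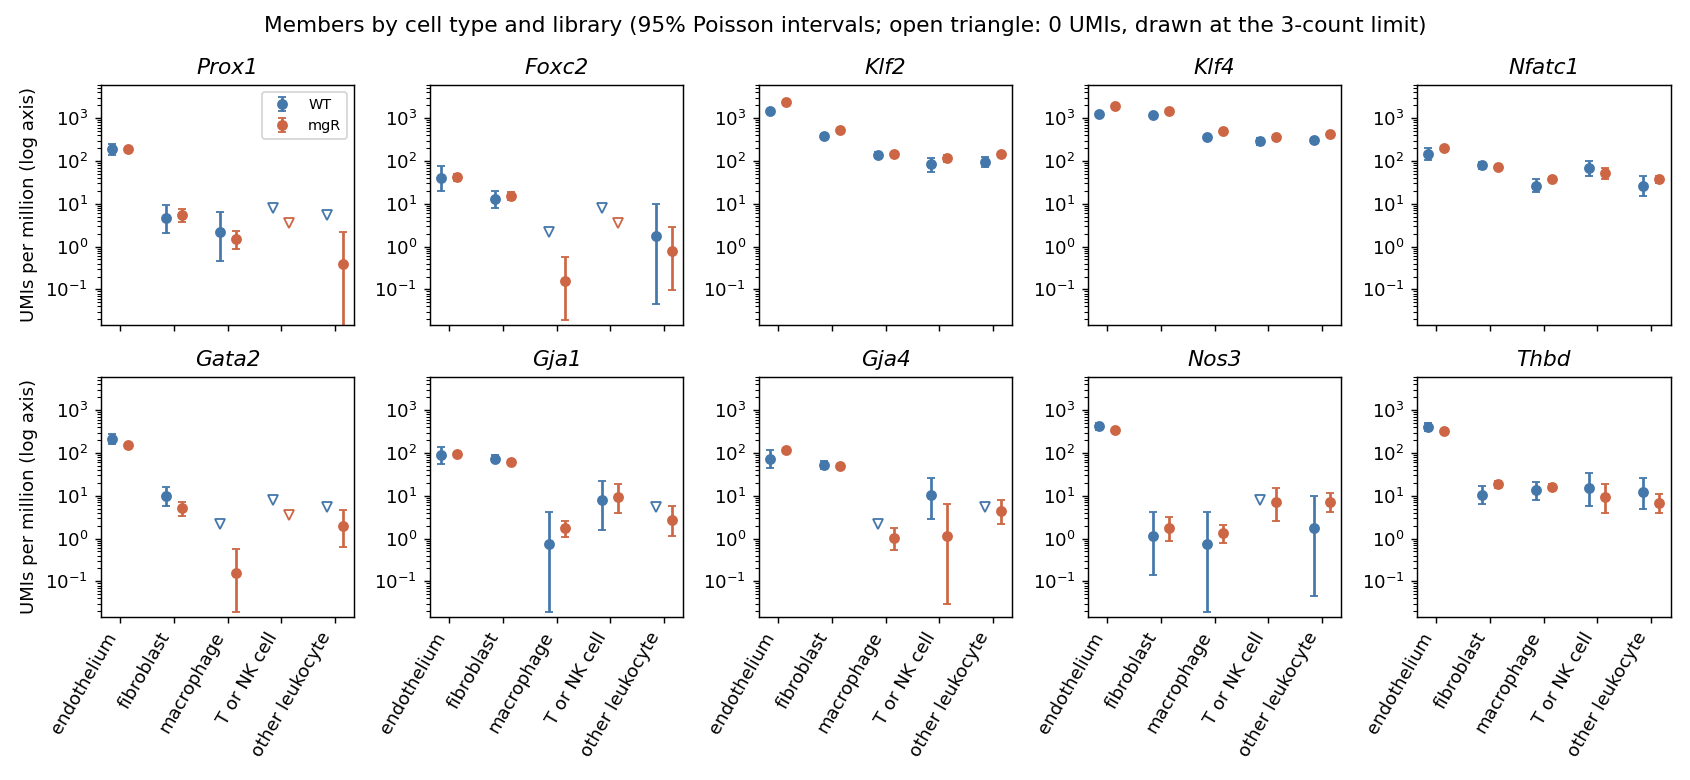
Level of each gene in CPM (log axis) in endothelium, fibroblasts, macrophages, T or NK cells and other leukocytes, with 1 point for the WT library (blue) and 1 for the mgR library (orange) and 95% Poisson intervals as bars, and open triangles at the level of 3 counts where no UMI was seen. Nos3, Thbd, Prox1 and Gata2 fall steeply from endothelium to fibroblasts (Thbd in mgR from 326 to 18.4 CPM), whereas Klf4, at 1271 CPM in WT endothelium and 1202 CPM in WT fibroblasts, stays nearly level.

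Within endothelium the 10 genes ranged from near universal to sparse. In WT endothelium a Klf2 UMI was seen in 86.3% of cells (73.7 to 94.3%), in mgR endothelium in 94.8% (92.3 to 96.7%), and a Klf4 UMI in 88.2% and 91.2%. Nos3 and Thbd were seen in 64.7 to 67.5% of cells in either library, Gata2, Nfatc1 and Prox1 in 42.9 to 58.8%, Gja1 and Gja4 in 19.6 to 30.0%, and Foxc2 in 17.6% of WT and 18.5% of mgR cells. When each cell was thinned to 2000 UMIs, which left out 7 WT and 15 mgR cells, Klf2 was seen in 72.7% (57.2 to 85.0%) of the 44 WT cells left and in 87.6% (84.1 to 90.6%) of the 428 mgR cells left. At the same depth Gata2 was seen in 43.2% (28.3 to 59.0%) in WT against 23.6% (19.7 to 27.9%) in mgR. Prox1 was seen in 25% (13.2 to 40.3%) and 26.6% (22.5 to 31.1%), and Foxc2 in 6.82% (1.43 to 18.7%) and 7.01% (4.78 to 9.86%). The shares of Prox1 and Foxc2 were thus close in value, but the WT intervals are wide, and that of Foxc2 rests on 3 WT cells. At full depth the median cell held UMIs of 5 of the 10 genes in WT and of 6 in mgR.

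The 10 highest cells held a larger share of the sparse genes. The 10 highest of 443 mgR cells held 28.6% of the Gja4 UMIs, 27.4% of the Foxc2 UMIs and 23.1% of the Prox1 UMIs, against 10.0% of the Klf2 UMIs. A gene with few UMIs has a larger such share from counting alone (113 UMIs of Foxc2 against 6498 of Klf2). The share that evenly spread UMIs would give was not computed. The 10 highest of the 51 WT cells held 55.6% of the Klf2 UMIs and 54.5% of the Klf4 UMIs. A single WT cell held 48 of the 351 Klf2 UMIs. The counting intervals of the ratios between libraries do not cover this spread between cells. The mgR cell with the most Gja4 held 20 UMIs, and that with the most Prox1 held 16. Per cell, Klf2 had a median of 11.3 UMIs per 10000 in WT and 20.3 in mgR, with the highest cells at 45.4 and 129. Klf4 had medians of 10.2 and 14.1, with the highest cells at 61.8 and 121. The distributions of both genes overlapped widely between the libraries.

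Between the libraries, Klf2 and Klf4 were the genes with the clearest higher level in mgR endothelium. Klf2 gave 351 UMIs in the 51 WT cells and 6498 UMIs in the 443 mgR cells, which is 1439 CPM (1292 to 1597) against 2372 CPM (2315 to 2431) and a ratio of 1.65 (1.48 to 1.84). Klf4 gave 310 and 5212 UMIs, 1271 CPM (1133 to 1420) against 1903 CPM (1851 to 1955), and a ratio of 1.497 (1.34 to 1.68), just under a fold of 1.5. By a rule of at least 1.5-fold with an interval on 1 side of 1, Klf2 was the 1 gene of the 10 called higher and none was called lower, where 2.54% of 9191 measured genes were called higher, 4.72% lower and 7.26% in either direction. The median log2 ratio over the 10 genes was 0.04, beside -0.06 over all genes measured, and Klf2 and Klf4 stood at percentiles 87.3 and 84.1 of all ratios. With the libraries scaled to the median gene in place of the total, which adds 0.13 to every log2 ratio, Klf2, Klf4, Nfatc1 and Gja4 were called higher and Prox1 passed from just under to just over equality, where 393 genes were called higher and 289 lower.

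The higher Klf2 of the mgR library was not found in both sexes. In Xist cells Klf2 was at 2076 CPM in WT (180 UMIs in 18 cells) and 2141 CPM in mgR (3732 UMIs in 261 cells), a ratio of 1.03 (0.888 to 1.20). In Y cells it was at 1294 CPM in WT (103 UMIs in 14 cells) and 2793 CPM in mgR (1358 UMIs in 78 cells), a ratio of 2.16 (1.77 to 2.66). WT Xist cells were thus above WT Y cells, and in mgR the order was the opposite. Klf4 was higher in mgR in both, at a ratio of 1.30 (1.07 to 1.58) in Xist cells and 1.60 (1.32 to 1.96) in Y cells. The difference between the sexes was not tested, since each ratio rests on the cells of 1 library per genotype.

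The levels of immediate early genes, which digestion of a tissue can switch on, were also higher in mgR endothelium. The 16 genes of that list summed to 9161 CPM in WT and 11945 CPM in mgR endothelium, with a median log2 ratio of 0.27, and 14 of 16 ratios were over 1. Over all 9191 measured genes the median was -0.06, with 2.54% called higher and 4.72% lower. Fos, at a ratio of 1.7 (1.51 to 1.92), and Egr1, at 1.62 (1.29 to 2.07), were called higher, 0 were called lower, and the ratios of the others ran from 0.690 for Btg2 to 1.48 for Ier2 (Fosb, Jun, Junb, Jund, Atf3, Ier3, Zfp36, Dusp1, Nr4a1, Hspa1a, Hspa1b and Hsp90aa1 between them). In Xist cells 0 of the 16 were called higher and 3 lower, with a median log2 ratio of -0.05. In Y cells 10 were called higher and 1 lower, with a median of 0.69. Of all measured genes 1.73% were called higher and 3.29% lower in Xist cells, with a median log2 ratio of -0.24, and 1.9% and 3.34% in Y cells, with a median of -0.29. The list, like Klf2, was thus higher in mgR in Y cells and not in Xist cells, and its part in the Klf2 and Klf4 levels was not tested. Outside endothelium, Klf2 was 1.38-fold (1.27 to 1.499) higher in mgR fibroblasts and 1.08-fold (0.926 to 1.26) in mgR macrophages, and Klf4 was 1.23-fold (1.17 to 1.29) and 1.44-fold (1.31 to 1.58) higher. Klf4 was therefore above WT in all 3 cell types, and no difference could be told for Klf2 in macrophages. The immediate early list was also read outside endothelium. In fibroblasts it summed to 10420 CPM in WT and 10556 CPM in mgR, with a median log2 ratio of 0.02 and 9 of 16 ratios over 1. These ran from 0.276 (0.232 to 0.328) for Hspa1b to 1.40 (1.30 to 1.51) for Egr1. Of the 16, 0 were called higher and 2 lower (Hspa1a and Hspa1b), where 4.06% of all measured genes were called higher and 5.77% lower. In macrophages the list summed to 11775 and 9556 CPM, with a median of -0.39 and 2 of 16 ratios over 1. There 0 were called higher and 4 lower (Fos, Dusp1, Hspa1a and Hspa1b), where 7.63% of genes were called higher and 4.18% lower. Fos was at a ratio of 0.615 (0.570 to 0.664) in mgR macrophages. The part of the list in the Klf4 levels of fibroblasts and macrophages was not tested.

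**Figure D2:**
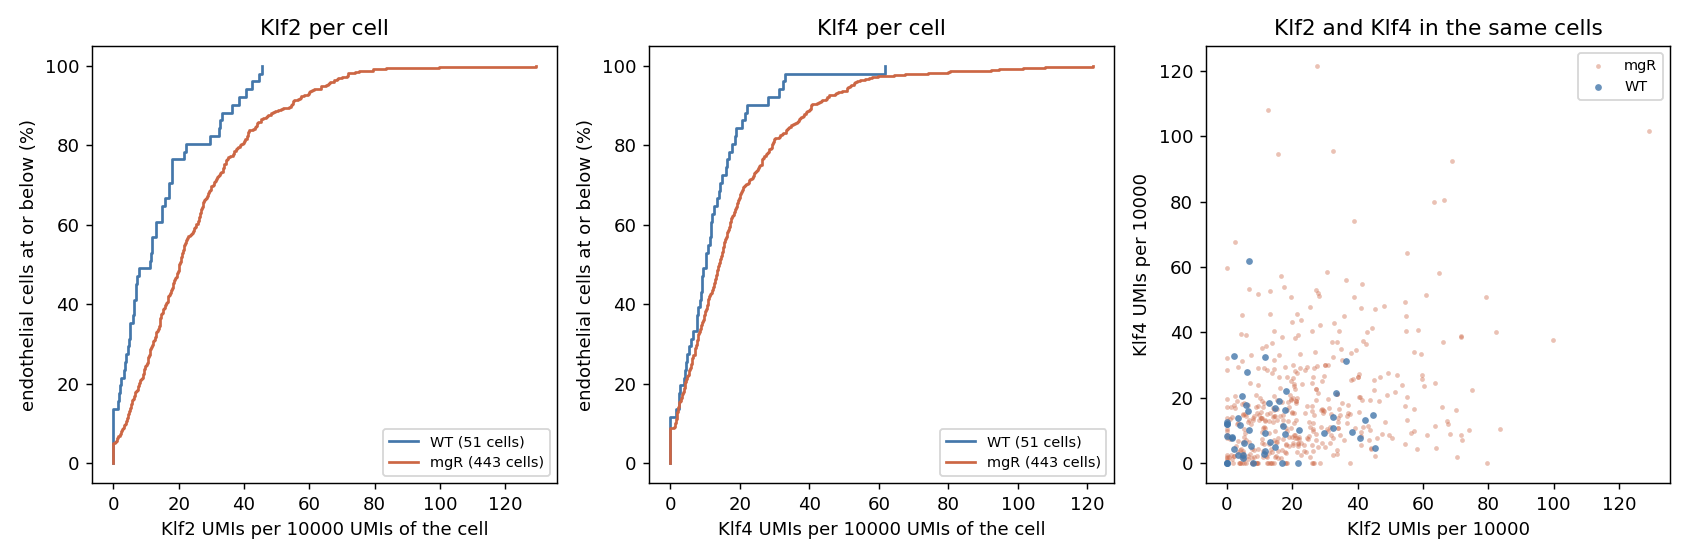
Cumulative share of endothelial cells (%) at or below each level of Klf2 (left) and Klf4 (middle), in UMIs per 10000 UMIs of the cell, for 51 WT cells (blue) and 443 mgR cells (orange), and both genes in the same cells (right). The mgR curve of Klf2 lies to the right of the WT curve, with medians of 20.3 and 11.3.

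Nos3 and Thbd, which KLF2 and KLF4 are known to raise, were not higher in the library with more Klf2. Nos3 was at 422 CPM (103 UMIs) in WT and 338 CPM (925 UMIs) in mgR, a ratio of 0.80 (0.652 to 0.990). Thbd was at 406 CPM (99 UMIs) and 326 CPM (893 UMIs), a ratio of 0.803 (0.652 to 0.999). Both intervals ended just under 1, and both ratios lay inside the 1.5-fold limits. Their direction also turned with sex. Nos3 was at 231 CPM in WT and 310.4 CPM in mgR Xist cells, a ratio of 1.35 (0.862 to 2.22), and at 565 and 302 CPM in Y cells, a ratio of 0.535 (0.381 to 0.764). Thbd was at 161 and 286 CPM in Xist cells, a ratio of 1.77 (1.05 to 3.27), and at 678 and 467 CPM in Y cells, a ratio of 0.688 (0.510 to 0.944). In both genes the WT Y cells stood highest, and without the cells with fibroblast UMIs the log2 ratio of Nos3 was 0.24.

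Gata2 was lower in mgR endothelium, at 217 CPM (53 UMIs) in WT and 150 CPM (410 UMIs) in mgR, a ratio of 0.689 (0.517 to 0.935) that did not reach the 1.5-fold limit. Its ratio was 0.691 (0.428 to 1.18) in Xist cells and 0.647 (0.397 to 1.10) in Y cells. Gata2 thus kept its direction in both, with intervals that included 1. Nfatc1 was at 148 CPM (36 UMIs) and 206 CPM (564 UMIs), a ratio of 1.40 (0.996 to 2.01), and Gja4 at 73.8 CPM (18 UMIs) and 118 CPM (322 UMIs), a ratio of 1.59 (0.992 to 2.72). Neither difference was beyond counting error. In Xist cells the Nfatc1 ratio was 2.73 (1.24 to 7.49), from 6 WT UMIs, and in Y cells 1.252 (0.752 to 2.21). Prox1 (0.989, 0.731 to 1.37), Foxc2 (1.01, 0.528 to 2.16) and Gja1 (1.04, 0.675 to 1.696) were near 1, with intervals as wide as the WT counts of 46, 10 and 22 UMIs make them. A Foxc2 difference within that interval was not detectable at this depth.

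**Figure D3:**
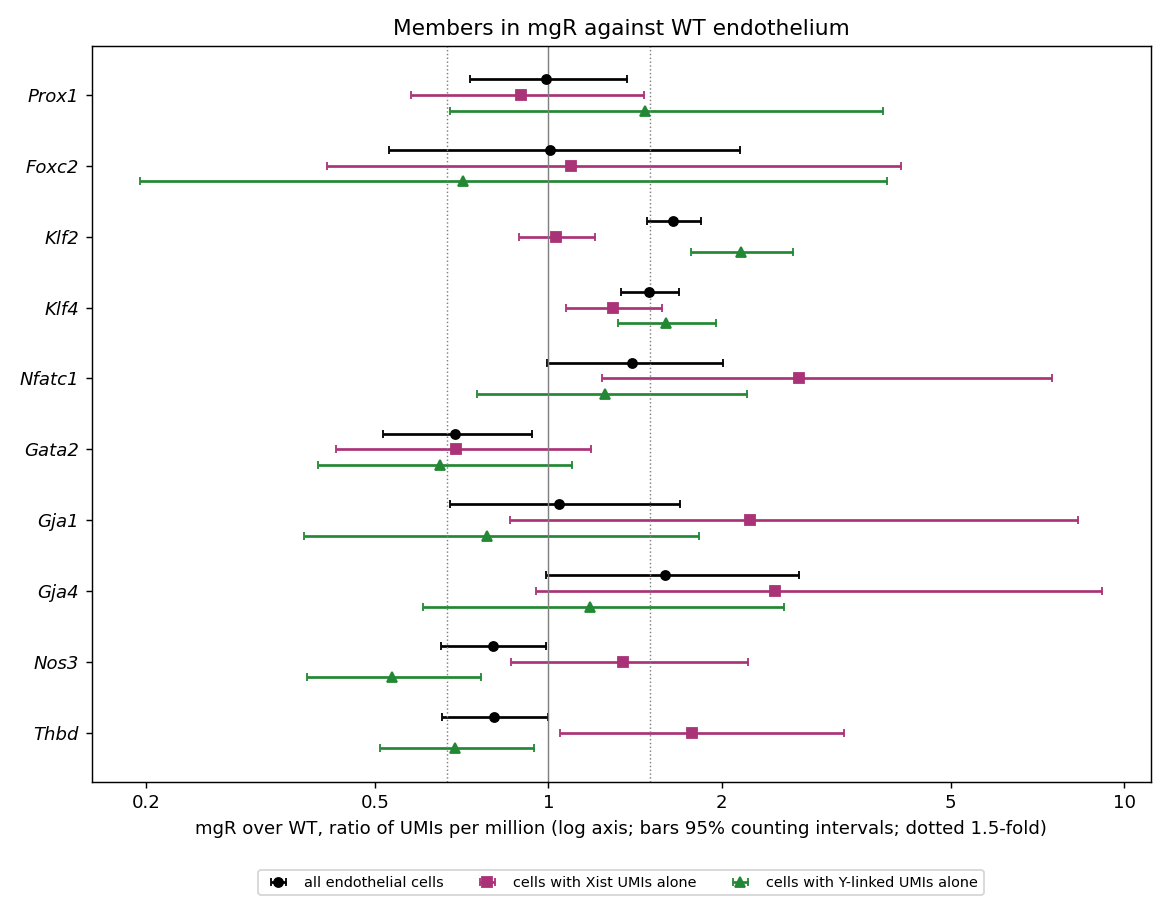
Ratio of CPM, mgR over WT, of each gene in all endothelial cells (black), Xist cells (purple) and Y cells (green), on a log axis with 95% counting intervals and dotted lines at 1.5-fold. Klf2 lies at 1.65 in all cells, 1.03 in Xist cells and 2.16 in Y cells.

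Genes around these regulators were read from lists. Of all 9191 measured genes 2.54% were called higher and 4.72% lower, with a median log2 ratio of -0.06. Of 8 measured genes that KLF2 and KLF4 are known or proposed to raise, 0 were called higher and 0 lower, with a median log2 ratio of -0.15. The water channel gene Aqp1 had a ratio of 0.937 (0.830 to 1.06), the junction gene Heg1 0.926 (0.786 to 1.10), the angiopoietin receptor gene Tek 0.691 (0.550 to 0.876), the caveolin gene Cav1 0.868 (0.703 to 1.08) and the sialomucin gene Podxl 0.881 (0.706 to 1.11). The Wnt genes Wnt9b (0.799, 0.612 to 1.06) and Dkk2 (1.29, 0.896 to 1.92) had intervals that included 1.

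Of 9 measured genes that laminar flow is known to lower, 5 were called higher in mgR and 0 lower, with a median log2 ratio of 0.70. Over all measured genes 2.54% were called higher and 4.72% lower. The 5 were the vasoconstrictor gene Edn1 (2.35, 1.26 to 4.96), the leukocyte adhesion genes Icam1 (1.63, 1.04 to 2.69) and Sele (4.07, 1.36 to 19.97), the monocyte chemokine gene Ccl2 (3.84, 2.69 to 5.67) and the matrix protein gene Ccn1 (1.63, 1.23 to 2.19). Vcam1, a further adhesion gene, had a ratio of 1.26 (1.09 to 1.46), Ccn2 1.57 (0.9996 to 2.60) and the growth factor gene Pdgfb 0.708 (0.449 to 1.17). A few cells carried much of this: the 10 highest mgR cells held 86.1% of the Ccl2 UMIs, 63.5% of those of Sele and 55.7% of those of Edn1. In macrophages Ccl2 (2562 CPM in WT and 2492 CPM in mgR) and Icam1 (320 and 229 CPM) were above endothelium, and Edn1, Sele and Ccn1 below it. The macrophage C1q genes summed to 20.5 CPM in WT and 169 CPM in mgR endothelium. Without cells with 10 C1q UMIs Icam1 was not called higher, and Edn1, Sele, Ccl2, Ccn1 and Ccn2 were. There 2.47% of all measured genes were called higher and 4.69% lower. The part of macrophage RNA was not tested. In Xist cells 3 of the 9 were called higher and 0 lower, with a median log2 ratio of 1.55, where 1.73% of all measured genes were called higher and 3.29% lower. In Y cells 1 of the 9 was called higher and 2 lower, with a median of -0.28, where 1.9% of all measured genes were called higher and 3.34% lower. Without the cells with fibroblast UMIs, which left 26 WT and 142 mgR cells, 1 was called higher and 2 lower, with a median of 0.10, where 2.19% of all measured genes were called higher and 3.67% lower. The median of this list was thus higher in Xist cells than in all cells, although fewer genes were called among the 18 WT cells, and it was below 0 in Y cells, differences that were not tested.

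Of 16 genes of flow sensing and the MEK5-ERK5 pathway, 0 were called higher and 2 lower, the stretch-gated channel gene Piezo1 (0.642, 0.434 to 0.982) and the cerebral cavernous malformation gene Krit1 (0.633, 0.425 to 0.977), with a median log2 ratio of -0.36. Both intervals ended just under 1. Over all measured genes 2.54% were called higher and 4.72% lower, with a median of -0.06. The factor Mef2a had a ratio of 0.750 (0.609 to 0.931), and the ratios of the kinase and receptor genes Map3k2, Map3k3, Kdr, Flt4 and Plxnd1, the G protein genes Gnaq and Gna11, and Mef2c, Mef2d and Pdcd10 ran from 0.701 to 1.36 with intervals that included 1. Of 6 measured genes of calcineurin and NFAT, the calcineurin subunit gene Ppp3r1 (2.78, 1.06 to 10.4) was called higher and Nfatc3 (0.453, 0.241 to 0.924) lower. The catalytic subunit gene Ppp3ca had a ratio of 0.779 (0.658 to 0.928), Ppp3cb 0.95 (0.525 to 1.89) and the NFAT target Rcan1 1.19 (0.778 to 1.90). Ppp3r1 had 4 WT UMIs, so its ratio rests on few molecules.

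Of 8 measured lymphatic genes 3 were called higher and 1 lower, with a median log2 ratio of 0.36. Over all measured genes 2.54% were called higher and 4.72% lower. The chemokine gene Ccl21a had 0 WT UMIs, and its 880 mgR UMIs lay in 10 of 443 cells (2.26%). Set against a floor of 3 counts over the WT cells, its ratio was 26.1. That ratio rests on these 10 cells, and 51 WT cells are too few to show that such cells were absent. The Mmrn1 UMIs of mgR also lay in 10 cells. Mmrn1 had a ratio of 5.08 (1.37 to 42.4), the receptor gene Nrp2 4.48 (1.51 to 21.98) and the tight junction gene Cldn11 0.382 (0.211 to 0.740), while Lyve1 (1.99, 0.830 to 6.26), Flt4 (0.749, 0.480 to 1.22), Itga9 (0.831, 0.637 to 1.10) and Tie1 (0.702, 0.527 to 0.953) were not called. Without the lymphatic-like cells Nrp2 was the 1 gene still called higher and the median was -0.62, where 2.47% of all measured genes were called higher and 4.61% lower. Ccl21a and Mmrn1 are among the genes that define the cells left out. The loss of their calls, and the fall of the median that goes with it, was therefore fixed by that choice. Nrp2 was at 12.3 CPM (3 UMIs) in WT and 55.1 CPM in mgR endothelium, but at 199 and 231 CPM in macrophages. It was still called higher without the cells with 10 UMIs of the macrophage C1q genes. The part of macrophage RNA in its ratio was not tested. Of the other connexins Gjc1 alone was measured, at a ratio of 1.01 (0.651 to 1.64).

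In single cells the 10 genes gave 45 pairs, and for each pair the number of cells with both genes was set against the number that the shares of both would give within 5 strata of depth. In mgR this ratio ran from 0.584 to 1.42 over the 45 pairs, with a median of 1.02. With cells thinned to 2000 UMIs and the plain product of the shares it ran from 0.397 to 1.95, with a median of 1.04. Most pairs of these regulators were therefore seen together about as often as their shares would give. Klf2 and Klf4 were seen together in 390 of 443 mgR cells, where 385 were expected. In WT they were together in 41 of 51 cells, where 39.5 were expected. With Klf2 in 420 and Klf4 in 404 of the 443 mgR cells, the shared count had little room to leave the expected one. For this pair it therefore says little about their relation.

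The lowest pair was that of the connexins. Gja1 was seen in 133 and Gja4 in 132 of 443 mgR cells, and both in 24 cells, where 41.1 were expected, a ratio of 0.584. With cells thinned to 2000 UMIs, 4 cells held both, where 10.1 were expected, a ratio of 0.397 with an interval (0.108 to 1.02) that just included 1. Gja4 was seen in 18.0% (11.9 to 25.7%) of the mgR cells with Gja1 and in 34.8% (29.5 to 40.4%) of those without. In WT 1 cell held both, where 2.90 were expected. The connexins thus overlapped in some cells, the lower share with both was clear at full depth and not beyond counting error in thinned cells, and the WT library was too small to show it. The pair was picked out after its values were seen.

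Prox1 was seen with Foxc2 more often, and with Gja1 less often. Of 190 mgR cells with Prox1, 50 held Foxc2, where 36.7 were expected, and of 24 WT cells with Prox1, 6 held Foxc2, where 4.40 were expected. Foxc2 was seen in 26.3% (20.2 to 33.2%) of mgR cells with Prox1 and in 12.6% (8.81 to 17.4%) of those without. Foxc2 was also seen with Gja4 in 35 mgR cells, where 24.7 were expected. Prox1 and Gja4 were together in 69 mgR cells, where 58.2 were expected, and in 9 WT cells, where 6.46 were expected. Prox1 and Gja1 were together in 45 mgR cells, where 62.4 were expected. Prox1, Foxc2 and Gja4, all known from valves of lymphatic vessels, were thus each seen with the others in more mgR cells than expected. No interval was set on the counts of Gja4 with Prox1 or Foxc2, or on that of Prox1 with Gja1, and the counts of WT were small. The excess of Gja4 with Prox1 or with Foxc2 is therefore not shown to pass counting error. Lyve1, a gene of lymphatic endothelium, was seen in 9.47% of mgR cells with Prox1 and 7.11% of those without. Its level had a ratio of 1.76 (1.19 to 2.64) between them. Macrophages held far more Lyve1, at 325 CPM in WT and 795 CPM in mgR, than endothelium, at 20.5 and 40.9 CPM. Its UMIs therefore do not by themselves mark lymphatic cells here.

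**Figure D4:**
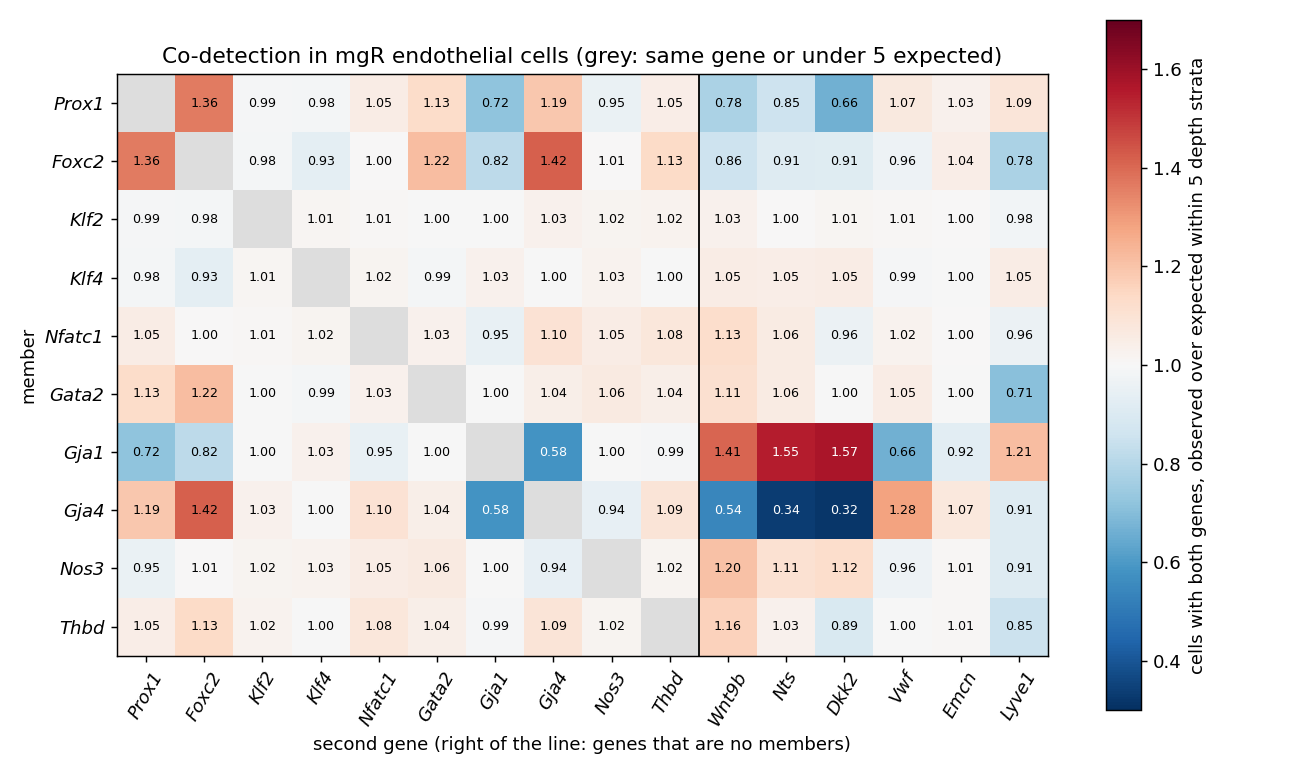
Cells with both genes over the number expected within 5 depth strata, for each of the 10 genes (rows) with the others and with 6 further genes (columns right of the line) in 443 mgR endothelial cells. The lowest pair among the 10 is Gja1 with Gja4 at 0.58, and Gja1 and Gja4 stand on opposite sides of 1 with Wnt9b, Nts, Dkk2 and Vwf.

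Cells with 1 connexin alone differed in other endothelial genes. In mgR, 109 cells held Gja1 alone and 108 held Gja4 alone, at median depths of 7589 and 5418 UMIs. The secreted peptide gene Nts was at 1877 CPM in cells with Gja1 alone and 146 CPM in cells with Gja4 alone, a ratio of 12.9 (10.5 to 16.1). The Wnt ligand gene Wnt9b was at 390 and 59.5 CPM, a ratio of 6.55 (4.67 to 9.42), and the Wnt antagonist gene Dkk2 at 327 and 62.7 CPM, a ratio of 5.22 (3.74 to 7.46). The clotting factor gene Vwf went the other way, at 59.5 CPM with Gja1 alone and 448 CPM with Gja4 alone, a ratio of 0.133 (0.0968 to 0.179), as did Prox1 at 115 and 321 CPM, a ratio of 0.360 (0.280 to 0.458), and Foxc2 at 29.7 and 72.1 CPM. Klf2 (2178 and 2759 CPM), Klf4 (1861 and 2164 CPM), Nos3 (398 and 312 CPM) and Gata2 (145 and 185 CPM) differed far less. Genes of other cell types differed as well. The capillary gene Fabp4 had a ratio of 5.69 (3.97 to 8.39) between mgR cells with Gja1 alone and Gja4 alone. The ratio was 3.42 (2.72 to 4.34) for the lymphatic gene Ccl21a. For Lyve1, which was highest in macrophages here, it was 2.34 (1.12 to 5.33). The fibroblast gene Dcn had a ratio of 0.560 (0.534 to 0.589), and the part of these genes in the contrast was not tested. In WT 9 cells held Gja1 alone and 11 held Gja4 alone. Wnt9b had a ratio of 4.17 (1.98 to 9.81) and Prox1 of 0.104 (0.0117 to 0.431) between them, in the same direction as in mgR. Klf4 was higher with Gja1 alone in WT, at a ratio of 1.96 (1.44 to 2.69), and not in mgR, at 0.860 (0.8003 to 0.925), and Nts had a ratio of 0.716 (0.388 to 1.30) and Dkk2 of 1.73 (0.677 to 4.76), with intervals that included 1. The division by Wnt9b and Prox1 was thus seen in both libraries, and that by Nts in mgR alone, a difference that was not tested.

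**Figure D5:**
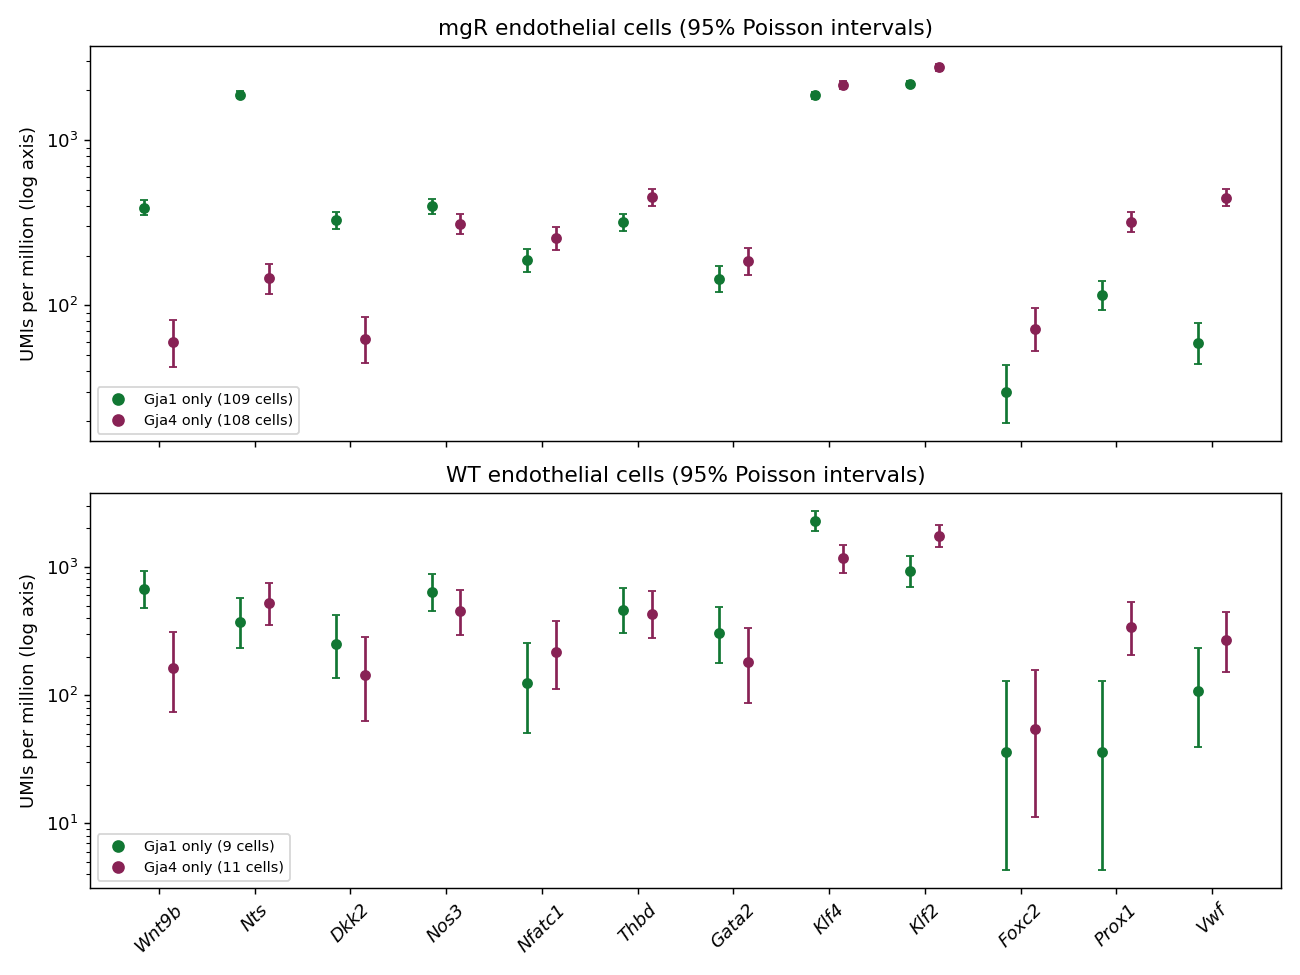
Level in CPM (log axis) of 12 genes in endothelial cells with Gja1 alone (green) and Gja4 alone (purple), for mgR (top, 109 and 108 cells) and WT (bottom, 9 and 11 cells), with 95% Poisson intervals. In mgR, Wnt9b, Nts and Dkk2 are higher with Gja1, and Prox1, Foxc2 and Vwf with Gja4.

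Cells with Wnt9b, a gene that valve endothelium exposed to flow makes, held more of the nitric oxide synthase. In mgR, Nos3 was at 528 CPM in the 119 cells with a Wnt9b UMI and 239 CPM in the 324 without, a ratio of 2.21 (1.94 to 2.52), and in WT the ratio was 1.64 (1.08 to 2.46) between 12 and 39 cells. Gja1 was at 143 and 68.8 CPM in mgR, a ratio of 2.08 (1.61 to 2.67), and had a ratio of 3.17 (1.254 to 8.41) in WT. Prox1 was lower in cells with Wnt9b, at 96.0 and 234 CPM in mgR with a ratio of 0.411 (0.323 to 0.517), and at a ratio of 0.268 (0.0826 to 0.677) in WT. Gja4 was at 42.7 and 157 CPM in mgR, a ratio of 0.272 (0.191 to 0.380), and in WT the ratio was 0.439 (0.0815 to 1.55). Nfatc1 (257 and 179 CPM), Klf4 (2198 and 1749 CPM), Klf2 (2636 and 2235 CPM) and Thbd (392 and 291 CPM) were modestly higher with Wnt9b in mgR. Depth differed between these cells, with medians of 7589 UMIs with Wnt9b and 4976 without. Over the 443 mgR cells the log level per cell had r = 0.29 with log depth for Gja1, 0.25 for Klf4, 0.21 for Nfatc1 and 0.19 for Nos3, and the part of depth in these contrasts was not tested. Genes of other cell types were lower with Wnt9b, at a ratio of 0.586 (0.563 to 0.610) for Dcn and 0.453 (0.370 to 0.551) for Fabp4.

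Divided by Prox1 itself, mgR endothelium showed smaller contrasts. Foxc2 was at 57.8 CPM in the 190 cells with Prox1 and 26.7 CPM in the 253 without, a ratio of 2.16 (1.45 to 3.28). Gja4 had a ratio of 1.45 (1.15 to 1.81), Nfatc1 of 1.32 (1.12 to 1.57), Gata2 of 1.30 (1.06 to 1.58) and Klf4 of 1.24 (1.18 to 1.31), whereas Gja1 had a ratio of 0.643 (0.493 to 0.834) and Nos3 of 0.892 (0.782 to 1.02). Of the 880 Ccl21a UMIs 756 were in cells with Prox1, but these were 3.68% of the cells with Prox1, so that nearly all cells with Prox1 lacked this lymphatic gene. The capillary gene Fabp4 was at 113 CPM with Prox1 and 354 CPM without, although the share of cells with it was alike (14.7% and 14.6%). In WT, Gja4 had a ratio of 5.28 (1.49 to 28.4) and Nfatc1 of 2.40 (1.14 to 5.40) between the 24 cells with Prox1 and the 27 without, and Nos3 of 0.643 (0.420 to 0.972).

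The genes most like each of the 10 over the 443 mgR cells were taken among 6117 genes seen in at least 10% of them, by Pearson's r of log levels per cell. All values share cells and depth and are a description. Klf4 was most like 5 immediate early genes, Atf3 (r = 0.54), Jund (0.51), Fosb (0.49), Fos (0.47) and Jun (0.46), and in WT these values were 0.35, 0.32, 0.39, 0.37 and 0.32. Over mgR cells the summed immediate early list had r = 0.60 with Klf4 and 0.22 with Klf2. Klf2 was most like Klf4 (0.38), the chaperone gene Hsp90ab1 (0.36), the glucocorticoid-induced gene Tsc22d3 (0.33), the BMP target Id1 (0.31) and Crip2 (0.31). Gja1 was most like Prnp (0.45), Cd44 (0.42), Nts (0.42), Sorbs2 (0.41) and Ptprr (0.40). For Gja4 these were the fibronectin gene Fn1 (0.37), Lrg1 (0.35), Ahsg (0.34), Rdx (0.32) and Postn (0.32), and for Nos3 they were Crip1 (0.39), Wnt9b (0.37), Adam15 (0.36), Actg1 (0.33) and Cdh11 (0.33). Prox1 was most like Ltbp1 (0.38), which codes for a binding protein of latent TGF-β, Enpp2, Lsamp, Tob2 and Slc38a2 (0.29 to 0.31), and Foxc2 was most like Ednrb (0.34), Lsamp (0.34), Postn, Col18a1 and H2-Q6 (0.29). Lsamp was thus near the top for both. The relations of Thbd were headed by the VEGF receptor gene Flt1 (0.31), ahead of Actn1, Rock2, Adamts1 and Ece1 (0.22 to 0.26). Those of Nfatc1 (Wnk1, Eif2s2, Ybx3, Ttc9 and Actg1) lay between 0.24 and 0.28, and those of Gata2 (Notch1, Creb3l2, Flt1, Ets1 and Mical2) between 0.20 and 0.22.

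Among the 45 pairs of the 10 genes, the strongest relation in mgR was that of Klf2 with Klf4, followed by Klf4 with Nos3 (0.26) and Klf2 with Nos3 (0.24), and the lowest was that of Gja1 with Gja4 (-0.18).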

How the data were processed

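Count matrices of 1 WT and 1 mgR mitral valve library were used as deposited: whole UMI counts per gene and cell barcode, which the authors made with Cell Ranger 7.1.0 on mm10, per the submitters' processing notes. Cells with 200 to 5000 genes and at most 10% mitochondrial UMIs were kept (875 of 1104 WT and 3438 of 3802 mgR barcodes), and doublets were not removed beyond the upper gene limit and the absence of Ptprc from the gate. Cell types were gated by marker UMIs and not clustered. UMIs were summed per library and cell type and divided by the summed total of the same cells (CPM). No p-values were computed, because neither genotype has a second library. Sums have exact Poisson, shares Clopper-Pearson and ratios exact conditional binomial 95% intervals, which cover counting error only. A gene with at least 20 endothelial UMIs over both libraries was measured, and called when its ratio passed 1.5-fold with an interval on 1 side of 1 (2-fold between cell types). Shares were also computed with each cell thinned to 2000 UMIs. Expected co-detection was the product of the shares, in thinned cells or summed over 5 depth strata. All 10 genes were named whatever their values, list genes where they had at least 100 endothelial UMIs or were called, and the 5 genes most like each of the 10. The genes, lists and tests were chosen with earlier results of these data known, and the pairs of Gja1 and Gja4 with each other and with Wnt9b, Nts, Dkk2 and Vwf, and the cells with 1 connexin alone, after their values were seen. Python 3.11.15, NumPy 2.4.6, SciPy 1.17.1 and pandas 2.3.3 were used, and the scripts were tested on simulated data. The simulated library sums had counting error and no spread between cells. In them the rule called 49% of genes set 2-fold higher in mgR, 52.3% of those set 2-fold lower and 2.42% of unchanged genes. A gene that was not called can thus still differ by 2-fold. Gene positions came from GENCODE M21 by identifier (32158 of 32285 features matched).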

Additional observations from a re-analysis of the deposited data

Results flagged for a closer look

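For 5 of the 10 genes the direction of the mgR to WT difference in endothelium was opposite in Xist cells and Y cells. The difference was not tested, since there is 1 library per genotype, and most of the intervals include 0. On the log2 scale Nos3 was at 0.43 in Xist cells and -0.90 in Y cells, and Thbd at 0.83 and -0.54. Gja1 was at 1.16 and -0.35, from 4 and 9 WT UMIs. Prox1 was at -0.16 and 0.56, and Foxc2 at 0.13 and -0.50, from 4 and 3 WT UMIs. Only the values of Thbd in both and of Nos3 in Y cells had an interval on 1 side of 0.

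Cells outside the comparisons also held UMIs of the 10 genes. There were 963 UMIs in 23 mgR cells and 25 UMIs in 1 WT cell with both endothelial genes and Ptprc, and 442 UMIs in 9 mgR barcodes that met the endothelial gate but not the limits on genes or mitochondrial UMIs.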

How the results depend on the processing

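Over 14 alternatives, Klf2 (log2 ratio 0.044 to 1.11), Klf4 (0.37 to 0.71), Nfatc1 (0.14 to 1.45) and Gata2 (-0.76 to -0.33) kept their direction in each. Others turned in some: Gja4 (-0.15 to 1.31), Thbd (-0.54 to 0.83), Nos3 (-0.90 to 0.43), Foxc2 (-0.50 to 0.47), Gja1 (-0.59 to 1.16) and Prox1 (-0.28 to 0.56). In Xist cells the log2 ratio of mgR over WT was 0.43 for Nos3 and 0.83 for Thbd, both reversed, and 1.16 for Gja1, 0.044 for Klf2, 0.37 for Klf4 and 1.45 for Nfatc1. In Y cells it was 1.11 for Klf2, -0.90 for Nos3 and 0.56 for Prox1, and Prox1 with Foxc2 stood at 3.29 times the expected cells. Without the cells with fibroblast UMIs Nos3 reversed to 0.24, Gja4 moved to -0.15, and Gja1 with Gja4 was seen in no thinned mgR cell (a ratio of 0, with an upper bound of 1.60). Thinned cells gave -0.59 for Gja1. The cause of these changes was not tested. The calls among the 10 genes, 1 in all cells (Klf2 higher), also changed in kind. Xist cells gave 2, Nfatc1 and Thbd higher, without Klf2. There were 2 with a gate of 6 UMIs or without capillary-like cells (Klf2 and Gja4 higher), and 2 without cells with collagen UMIs (Klf2 higher, Gata2 lower). Y cells gave 3 (Klf2 and Klf4 higher, Nos3 lower), as did thinned cells (Klf2 and Klf4 higher, Gata2 lower), and a gate of 2 UMIs or leaving out C1q or lymphatic-like cells gave 3 (Klf2, Klf4 and Gja4 higher). The scale of the median gene gave 4. Over the 11 other sets of cells at full depth, 1.73 to 2.86% of all measured genes were called higher and 3.29 to 4.74% lower. That scale also gave 393 genes called higher and 289 lower, and a minimum of 100 UMIs gave 218 lower. The alternatives that leave out collagen, C1q, lymphatic-like and capillary-like cells, and all alternatives for the connexin pairs, were chosen after seeing the data. The other 195 values of the main comparisons under alternatives moved by less than their counting error or, for counts of genes, by under 1.5 times. No paired analysis was possible because each genotype has 1 library, and for the same reason no library could be left out. The 51 WT endothelial cells limit each ratio, most of all for genes with few WT UMIs, such as the 10 of Foxc2, whose ratio of 1.01 had an interval of 0.528 to 2.16.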
